A study of Mus musculus with 6 samples.

Results

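The 10 genes described here belong to the interleukin-1 (IL-1) family of cytokines and receptors and to the inflammasome, and were chosen by name as Il1a, Il1b, Il1r1, Il1r2, Il1rn, Il1rap, Il18, Il33, Nlrp3 and Casp1 among the 30029 genes of a liver RNA-seq count table. Each name had 1 row, and all 10 passed the filter on low counts. Liver polyadenylated RNA came from mice labelled wild type and mice labelled ATP7B knockout, with 3 libraries in each group. Both groups had received a high-fat diet for 24 weeks, so neither was a normal-diet control. The labels give no strain, sex, age or allele for the knockout, and do not say whether a library came from 1 animal.

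None of the 10 genes passed the test between the groups. Casp1, Il33, Il1rn and Nlrp3 had the largest differences, each at 1.81-fold to 1.95-fold higher mean fitted levels in the libraries labelled knockout, while Il1a differed by 1.01-fold and Il1b by 1.38-fold. Il18 and Il1rap were on the lower side at 1.35-fold and 1.33-fold. Of the 17606 tested genes 1.44% were called (0.932% higher and 0.506% lower) by edgeR's quasi-likelihood test at an adjusted p under 0.05, so 0 of 10 is not apart from that background. Most calls lay close to the threshold, since 222 of the 253 called genes had an adjusted p of at least 0.04 and the smallest was 0.0146. At an unadjusted p under 0.05 there was 1 of the 10, Casp1, where 19.7% of all tested genes stood (12.0% higher). DESeq2 called 0 of the 10 and 10.6% of all genes, and limma voom 0 of the 10 and 0.403%.

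IL-1 alpha and IL-1 beta are cytokine ligands that bind the receptor Il1r1, which then recruits its partner Il1rap and signals through Myd88 to NF-kB. The antagonist Il1rn occupies the same receptor without signalling, and Il1r2 is a decoy receptor with no signalling domain. Nlrp3 is a cytosolic sensor whose assembly activates caspase-1, the product of Casp1, and caspase-1 cuts the precursors of IL-1 beta and IL-18 into their active forms. In liver, Kupffer cells and recruited macrophages are known sources of IL-1 beta, and hepatocytes carry the receptor chains and answer IL-1 with acute-phase proteins. Transcript counts do not measure protein cleavage or secretion.

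The libraries held 57886524 to 70965999 counts. Levels are counts per 1000000 of the library size, where library sizes were scaled with edgeR's TMM factors (TMM-scaled CPM), in the order replicate 1, 2 and 3 of each labelled group. Below, WT and KO stand for the libraries with the wild-type and the knockout label. The targeted gene Atp7b had 17.5, 22.4 and 33.9 CPM in WT and 25.9, 27.1 and 23.6 CPM in KO (edgeR adjusted p = 0.939). Its transcript was not lower in KO, so it did not check the labels, and no statement here rests on a loss of Atp7b RNA. The 12 hepatocyte markers summed to 61700 to 79700 CPM in each library, of which Alb (albumin) gave 28600, 31100 and 35000 CPM in WT and 38000, 45400 and 39400 CPM in KO. The log2 fold change (KO over WT) was negative for 10 of the 12, with a median of -0.28 beside -0.02 for all tested genes. With total counts instead of TMM-scaled library sizes the medians were 0.03 and 0.31. The TMM factors were 0.886 to 0.899 in WT and 0.994 to 1.25 in KO. None of the 12 markers was called by edgeR, with 1 at an unadjusted p under 0.05 (Serpina1a, adjusted p = 0.151) and 1 called by DESeq2, 0 by limma voom. In bulk tissue, fewer cells of a type and less RNA per cell cannot be told apart.

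Il1a and Il1b, the agonist ligands, lie next to each other on chromosome 2 (GRCm39, 129141530 to 129151892 and 129206490 to 129213059, minus strand), 54.6 kb apart. Il1a had 2.87, 3.38 and 3.41 CPM in the WT libraries and 4.01, 3.43 and 2.34 CPM in the KO libraries. The highest and the lowest Il1a values were both in the KO group, and the groups overlapped. The Il1a log2 fold change (KO over WT) was 0.02 with a 95% interval of -0.61 to 0.65 (adjusted p = 0.985, edgeR). Il1b stood at 2.95, 2.38 and 2.46 CPM against 5.21, 3.30 and 2.23 CPM. KO replicate 1 was the highest of the 6 for Il1b and KO replicate 3 the lowest, so the groups overlapped. For Il1b the log2 fold change was 0.46 ± 0.34 (SE; interval -0.32 to 1.24, adjusted p = 0.514, edgeR), 0.09 without KO replicate 1, 0.71 without KO replicate 3 and 0.78 with total-count scaling. Genes annotated on the opposite strand overlap both, Gm14023 at Il1a with at most 53 counts and Il1bos at Il1b with at most 13 counts in a library, and while the libraries were made with a strand-marking dUTP step, whether counting used strand is not given in the sources used here.

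**Figure D1:**
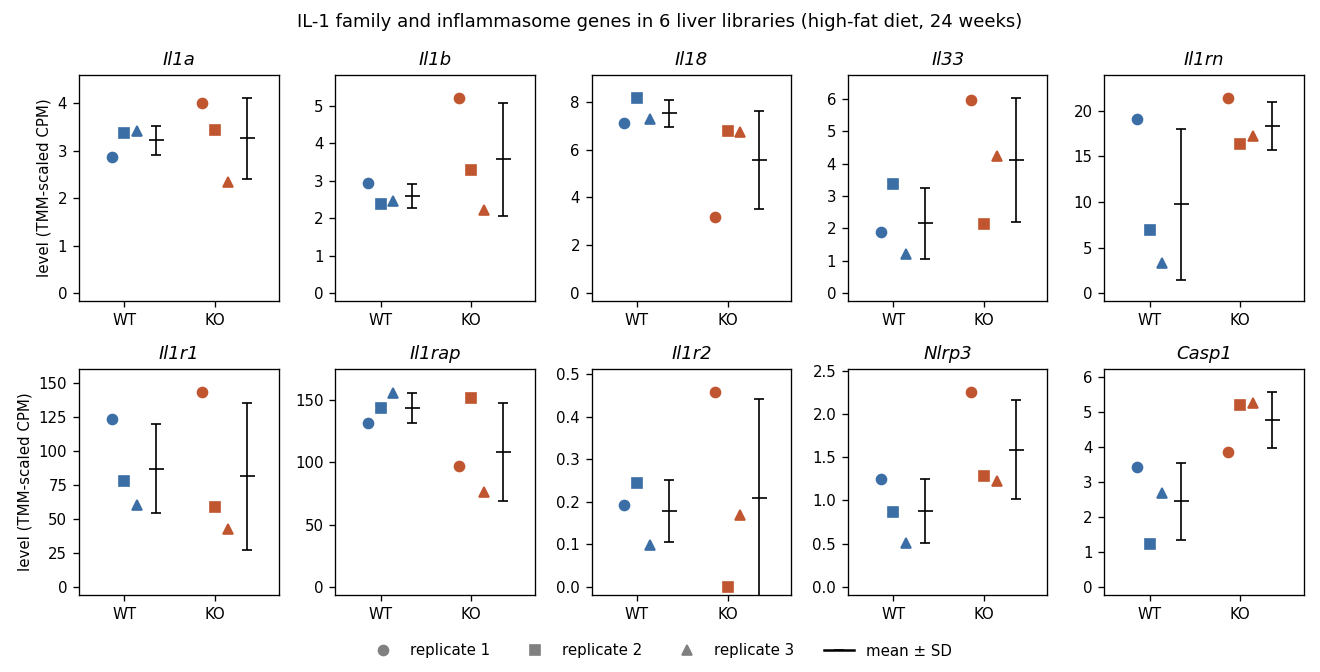
TMM-scaled CPM of each of the 10 genes in the 6 libraries, by labelled group, with the mean and SD of 3 libraries beside the points. On this scale Casp1 is higher in every KO library and Il18 lower, while the groups overlap for the other 8 genes, and with total-count scaling the groups of Il18 overlap; WT replicate 1 lies with the KO libraries for Il1rn.

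The starts of these neighbouring ligand genes are shown because the agonists share a locus and a level but no difference between groups was detected in either. The windows are RefSeq sequence of build GRCm38.p6, 250 bases before to 50 after the start, on the minus strand (chr2:129309923-129310222 for Il1a and chr2:129371090-129371389 for Il1b), with matches to 4 searched motifs in capitals.
Il1a: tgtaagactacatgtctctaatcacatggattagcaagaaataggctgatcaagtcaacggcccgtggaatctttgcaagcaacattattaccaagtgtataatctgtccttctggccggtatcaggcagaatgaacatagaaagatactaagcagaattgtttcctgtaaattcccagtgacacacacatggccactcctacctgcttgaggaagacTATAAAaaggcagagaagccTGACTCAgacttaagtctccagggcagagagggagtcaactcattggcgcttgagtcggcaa
Il1b: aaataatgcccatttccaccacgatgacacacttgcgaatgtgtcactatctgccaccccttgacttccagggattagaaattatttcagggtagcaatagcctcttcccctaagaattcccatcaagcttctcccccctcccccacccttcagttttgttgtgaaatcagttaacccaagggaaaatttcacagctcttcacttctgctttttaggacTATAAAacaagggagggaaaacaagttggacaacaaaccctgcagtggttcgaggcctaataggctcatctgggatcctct
The motifs were TATAAA for the TATA box, TGANTCA for AP-1, TTGCNNAA for C/EBP and GGG, any 2 bases and TTTCC for NF-kB, searched on both strands, and no 2 matches overlapped in a member's window. Of 32851 mouse windows of this length, 13.6% held the TATA box letters, 7.81% the AP-1, 10.8% the C/EBP and 1.63% the NF-kB letters. Il1a and Il1b each held TATAAA, with its first base at position -32 and -31 from the start, and Il1a also held TGACTCA at -12. A match is a description of the letters, not a binding site.

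Il1rn, the receptor antagonist (chromosome 2, 24226865 to 24241506, plus strand), was the ligand-side gene with the widest spread. It had 989, 369 and 199 counts in the WT libraries and 1641, 1155 and 1535 in the KO libraries, which is 19.1, 6.93 and 3.29 CPM against 21.4, 16.4 and 17.3 CPM. The KO libraries were close together, and WT replicate 1 stood among them while the other wild-type libraries were below all 3. The mean was 9.76 ± 8.26 CPM against 18.4 ± 2.68 CPM, a log2 fold change of 0.92 ± 0.59 (interval -0.51 to 2.34, adjusted p = 0.464, edgeR). Without WT replicate 1 the log2 fold change was 1.85 with an adjusted p of 0.046, and 1.48% of the genes tested in that fit were called higher. With all 13 alternative settings the log2 fold change of Il1rn ran from 0.50 to 1.85 and the adjusted p from 0.046 to 0.737. The summed level of 14 recruited monocyte and macrophage markers was also highest of its group in WT replicate 1, at 374 CPM against 229 and 211 CPM, and was 819, 570 and 1520 CPM in the KO libraries. Its part in the Il1rn values was not tested.

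Il1rn has 3 annotated start windows in the RefSeq table, and the gene count adds transcripts from all of them. Start 1 (chr2:24336610-24336909) and start 3 (chr2:24345121-24345420) are printed, on the plus strand of GRCm38.p6 with motif matches in capitals, because the deposited count cannot say which of them the differing libraries used. Start 2 shares 220 bases with start 3.
Il1rn start 1: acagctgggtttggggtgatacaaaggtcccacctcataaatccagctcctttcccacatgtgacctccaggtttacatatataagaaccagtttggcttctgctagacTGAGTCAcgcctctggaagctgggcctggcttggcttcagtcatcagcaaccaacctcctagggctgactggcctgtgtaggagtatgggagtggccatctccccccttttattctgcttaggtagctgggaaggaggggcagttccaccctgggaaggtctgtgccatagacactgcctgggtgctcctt
Il1rn start 3: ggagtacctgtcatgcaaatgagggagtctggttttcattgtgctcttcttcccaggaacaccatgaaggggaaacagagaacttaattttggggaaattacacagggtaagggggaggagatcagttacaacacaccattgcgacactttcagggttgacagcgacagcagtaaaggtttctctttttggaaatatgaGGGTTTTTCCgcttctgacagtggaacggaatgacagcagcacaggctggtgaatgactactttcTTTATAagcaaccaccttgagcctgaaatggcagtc
Start 1 held the AP-1 letters TGAGTCA at -141. Start 3 held the searched NF-kB letters, as GGGTTTTTCC, at -51 and a TATA box match on the other strand at 15. Il1rn, with 3 windows, was the 1 gene of the 10 with a match to this string. Other forms of NF-kB sequence were not searched, so the other genes may hold them.

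The signalling receptor Il1r1 and the decoy Il1r2 are neighbours on chromosome 1 (40264240 to 40356417 and 40113239 to 40164391, plus strand), within a run of 478 kb that also holds Il1rl2, Il1rl1, Il18r1 and Il18rap. Il1r1 was among the higher transcripts of the 10 genes, at 123, 77.8 and 60.2 CPM in the WT libraries and 143, 58.7 and 42.7 CPM in the KO libraries. Replicate 1 was the highest in both groups, and the other 2 KO libraries were below all 3 WT libraries. The Il1r1 log2 fold change was -0.09 ± 0.49 (interval -1.28 to 1.09, adjusted p = 0.952, edgeR), and 0.22 with total-count scaling. Without KO replicate 1 it was -0.78, and without WT replicate 1 it was 0.24.

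Il1r2 was near the limit of detection. Its counts were 10, 13 and 6 in the WT libraries and 35, 0 and 15 in the KO libraries. The count of 0 in KO replicate 2 allows a level of up to 0.0425 CPM, counting error only, and KO replicate 1 had the most counts. With a log2 fold change of 0.23 and an interval of -2.44 to 2.90 (adjusted p = 0.949, edgeR), a difference was not detectable at this depth.

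Il1rap, the accessory chain shared by the receptors for IL-1, IL-33 and IL-36 (chromosome 16, 26400454 to 26548867, plus strand), had 132, 144 and 156 CPM in the WT libraries and 97.3, 152 and 76.0 CPM in the KO libraries. KO replicate 2 lay within the wild-type range, and the other 2 were below it. The log2 fold change was -0.41 ± 0.24 (interval -0.97 to 0.15, adjusted p = 0.413, edgeR), -0.70 without KO replicate 2 (adjusted p = 0.0607), -0.20 without KO replicate 3 (adjusted p = 0.738) and -0.12 with total-count scaling. The antisense gene Gm20319 overlaps 16130 bases of Il1rap and had 3914 to 6435 counts, beside 6729 to 10728 for Il1rap, so reads of the pair could have been exchanged if strand was not used. In liver a soluble form of the Il1rap protein is made besides the membrane form, and the gene count does not separate them.

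Il18 encodes a cytokine that is stored as a precursor and cut by caspase-1 (chromosome 9, 50466127 to 50493140, plus strand). It had 7.13, 8.15 and 7.26 CPM in the WT libraries and 3.19, 6.78 and 6.74 CPM in the KO libraries. All 3 KO libraries were below all 3 WT libraries, by a small margin except for replicate 1. The mean was 7.51 ± 0.554 CPM against 5.57 ± 2.06 CPM, with a log2 fold change of -0.43 ± 0.29 (interval -1.11 to 0.24, adjusted p = 0.475, edgeR). It was -0.15 without KO replicate 1 and -0.10 with total-count scaling, where the groups overlapped. On the opposite strand Bco2 shares 355 bases and Tex12 4507 bases with Il18. Tex12 had at most 50 counts in a library. Bco2 had 1016 to 1626 counts, beside 244 to 596 for Il18, so reads in the shared bases could have been exchanged if strand was not used.

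Il33, an alarmin cytokine released from the nucleus of damaged cells and known in liver from stellate and endothelial cells (chromosome 19, 29902514 to 29938118, plus strand), had 1.89, 3.36 and 1.22 CPM in the WT libraries and 5.96, 2.14 and 4.24 CPM in the KO libraries. KO replicates 1 and 3 were above all wild-type libraries, and replicate 2 was inside their range. The log2 fold change was 0.93 ± 0.47 (interval -0.16 to 2.02, adjusted p = 0.332, edgeR). It ran from 0.57 (KO replicate 1 left out) to 1.40 without WT replicate 2. The 12 stellate cell and fibroblast markers together had 267, 276 and 294 CPM in WT replicates 1, 2 and 3 and 1040, 564 and 863 CPM in KO replicates 1, 2 and 3. Within KO the library with the lowest sum also had the lowest Il33 level, while within WT the library with the highest sum had the lowest. Of the 12 markers edgeR called 2 higher, Dcn and Lum, DESeq2 10 and limma voom 1. At an unadjusted p under 0.05 (edgeR) there were 11 of the 12, beside 19.7% of all tested genes. Groups did not overlap for 9, all higher, beside 13.7% of all tested genes. The median log2 fold change of the list was 1.30, with 11 positive and 1 negative. The call of Dcn was lost without WT replicate 2 or 3 or KO replicate 1, and that of Lum without any 1 library but KO replicate 2, with limma voom (adjusted p = 0.0765) and with no filter (adjusted p = 0.0547). With the replicate number as a block both calls were lost (edgeR adjusted p = 0.0537 for Dcn and 0.0795 for Lum). Few genes of any kind were called without WT replicate 2 (0), WT replicate 3 (4) or KO replicate 1 (11), or with the block (4). The part of these markers in the Il33 values was not tested. Il1rl1, the receptor of IL-33, had 0 counts in all 3 WT libraries and 0, 4 and 20 in the KO libraries, and did not pass the filter.

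Casp1, the inflammatory caspase (chromosome 9, 5298508 to 5307290, plus strand), was the gene of the 10 with the smallest p. It had 177, 66 and 162 counts in the WT libraries and 294, 365 and 465 in the KO libraries, or 3.41, 1.24 and 2.68 CPM against 3.84, 5.18 and 5.25 CPM. Every KO library was above every WT library, although replicate 1 of each group differed little. The mean was 2.44 ± 1.10 CPM against 4.76 ± 0.795 CPM and the difference did not pass the test (log2 fold change 0.96 ± 0.37, interval 0.11 to 1.82, unadjusted p = 0.032, adjusted p = 0.205, edgeR). Over the 13 alternatives the log2 fold change was 0.64 to 1.29 and the adjusted p 0.0831 to 0.417.

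Nlrp3, the sensor (chromosome 11, 59432394 to 59457781, plus strand), was low, with 65, 46 and 31 counts against 172, 90 and 109. In CPM these were 1.25, 0.863 and 0.513 in the WT libraries and 2.25, 1.28 and 1.23 in the KO libraries. The groups overlapped by a narrow margin, since WT replicate 1 was just above KO replicate 3. The log2 fold change was 0.86 ± 0.45 (interval -0.18 to 1.89, adjusted p = 0.35, edgeR), and 1.20 without WT replicate 1 (adjusted p = 0.246) but 0.52 without KO replicate 1. For Casp1 and Nlrp3 as for Il1rn, the macrophage marker sum was higher in every KO library, and its part in their values was not tested.

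Groups did not overlap for 2 of the 10 genes, Casp1 on the higher and Il18 on the lower side. Over all tested genes 25.7% had groups that did not overlap (13.7% higher, 12.0% lower in the KO group), so 2 of 10 is near the background. With total-count scaling there were 3 of 10, Casp1, Il1b and Nlrp3, all on the higher side, where 33.2% of all genes had groups that did not overlap, and Il18 was not among them. Without WT replicate 1 there were 4 of 10 (39.4% of all genes), without KO replicate 2 there were 4 (41.7%), and without KO replicate 3 there were 5 (33.3%). The median log2 fold change of the 10 genes was 0.35 beside -0.02 for all tested genes, with 7 positive and 3 negative. Without KO replicate 1 the median was -0.03, and without KO replicate 2 it was 0.69. Scaling by total counts raised the median of all genes to 0.31 and that of the 10 genes to 0.69.

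**Figure D2:**
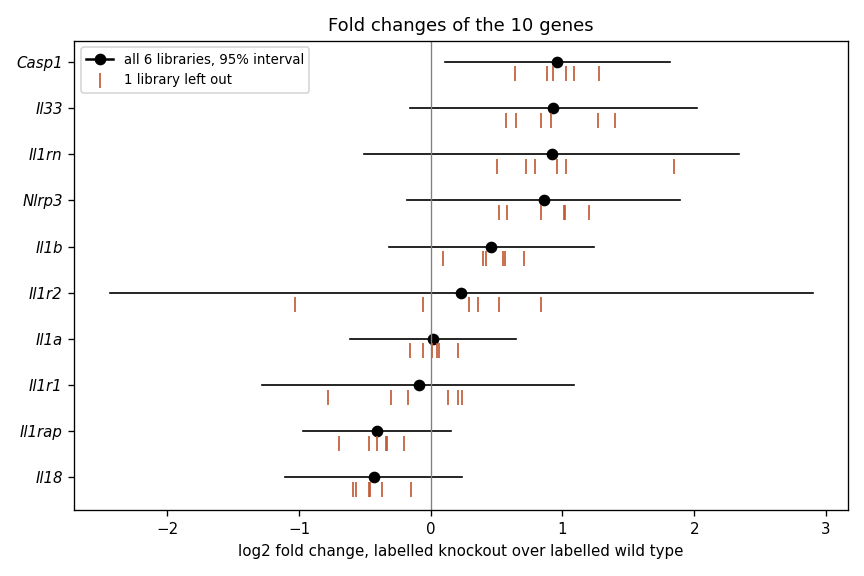
Log2 fold change of each gene, KO over WT, with the 95% interval from edgeR's quasi-likelihood fit (black) and the value with each of the 6 libraries left out in turn (ticks). The interval of Casp1, 0.11 to 1.82, is the 1 interval of the 10 that does not include 0, before adjustment over all genes; ticks of Il1a, Il1r1 and Il1r2 fall on both sides of 0.

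Single libraries carried much of the spread. KO replicate 1 was the highest of its group for 7 of the 10 genes (Il1a, Il1b, Il1r1, Il1r2, Il1rn, Il33 and Nlrp3) and the lowest for 2, Il18 and Casp1. In the WT group, replicate 1 was the highest for 5 (Il1b, Il1r1, Il1rn, Nlrp3 and Casp1), and replicate 3 the lowest for 5 (Il1r1, Il1r2, Il1rn, Il33 and Nlrp3). The Il1r1 level in KO replicate 1 was 143 CPM beside 58.7 and 42.7 CPM in the other 2.

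Levels between genes were compared per kilobase of annotated exon (CPM per kb). Over the 6 libraries the receptor chains Il1r1 and Il1rap were highest, with means of 13.2 and 11.1 CPM per kb, and each was above the other in 3 libraries. Il18 followed at 6.34 CPM per kb and was below Il1rap in all 6 libraries. Il1rn, Casp1, Il1a, Il1b and Il33 formed a middle range, with means from 2.54 down to 1.08 CPM per kb, and every neighbouring pair changed order in at least 1 library. Nlrp3 (0.303) and Il1r2 (0.102) were lowest, and in all 6 libraries Nlrp3 was below Il33 and Il1r2 below Nlrp3. These per-length values use the union of annotated exons, so a gene expressed mainly as a short transcript is understated.

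**Figure D3:**
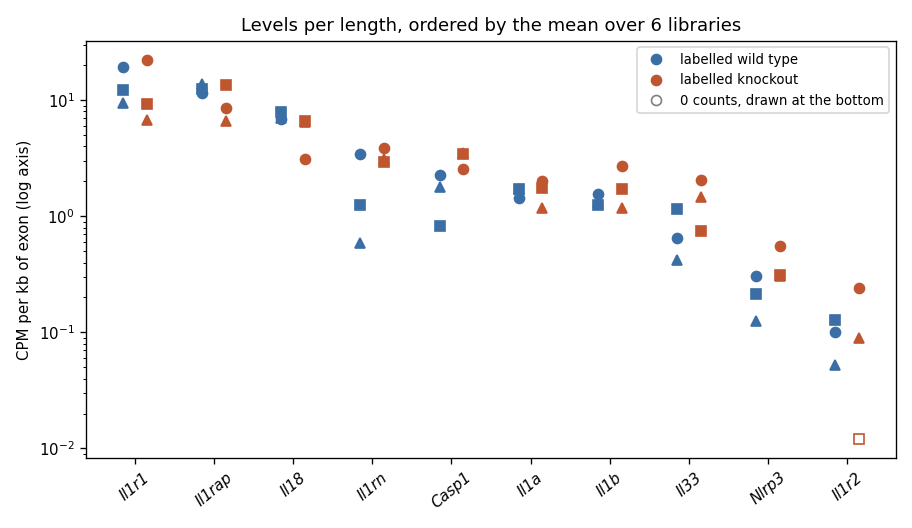
CPM per kb of annotated exon on a log axis for the 10 genes, ordered by the mean over 6 libraries; circles, squares and triangles are replicates 1, 2 and 3 of each labelled group. Il1r1 (mean 13.2) and Il1rap (11.1) lie at the top and Il1r2 (0.102) at the bottom, with the 0 of KO replicate 2 drawn as an open square.

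Ratios between genes were compared with the two-sided exact permutation test, whose smallest p with 3 libraries against 3 is 0.1, so none could reach 0.05. Il1rn relative to Il1b, antagonist to agonist, had a log2 ratio of 2.65, 1.5 and 0.40 in the WT libraries and 2.02, 2.28 and 2.91 in the KO libraries, a mean difference of 0.88 (exact permutation p = 0.3). That difference was 0.32 without WT replicate 3 and 1.45 without WT replicate 1. The wild-type libraries spanned almost the whole range and the knockout libraries lay in its upper part. The log2 ratio of Il1b to Il1a averaged -0.30 ± 0.29 and 0.08 ± 0.25 (SD, n = 3 each; exact permutation p = 0.3), a difference of 0.38 that was 0.24 without KO replicate 1 and 0.55 without WT replicate 1. For Il1b to Il18, both caspase-1 substrates, the means were -1.5 ± 0.24 and -0.63 ± 1.17 (exact permutation p = 0.3), and KO replicate 1 alone was positive at 0.69. The difference of 0.87 was 0.21 without KO replicate 1 and 1.34 without KO replicate 3. The decoy-to-receptor ratio Il1r2 to Il1r1 averaged -8.26 ± 0.44 and -8.17 ± 0.96 (exact permutation p = 0.9) and rests on few Il1r2 counts. The p-values of these 4 ratios are not adjusted, since the unadjusted values cannot pass.

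Other genes of the pathway were read in the same fit. Of 23 tested inflammasome and pyroptosis genes 1 was called higher, 0 lower and 22 were not called, with a median log2 fold change of 0.36. DESeq2 called 5 of the list, 2 higher and 3 lower, and limma voom 0, beside 10.6% and 0.403% of all genes, where edgeR called 1.44%. The gene called by edgeR was Txnip, a thioredoxin-binding protein that can bind Nlrp3 and is also a strongly glucose-regulated gene. Txnip had 84.7, 33.9 and 37.5 CPM in the WT libraries and 207, 236 and 198 CPM in the KO libraries (log2 fold change 2.04 ± 0.35, adjusted p = 0.0464, edgeR). All KO libraries were above all WT libraries. The Txnip call was lost without WT replicate 2 or 3 or KO replicate 1 or 3. It was also lost with limma voom and with the replicate number as a block (edgeR adjusted p = 0.0605). Without WT replicate 2 or 3 or KO replicate 1 or 3, edgeR called only 0, 4, 11 and 33 genes in all, and 4 with the block. The log2 fold changes of Txnip were 1.80 to 2.58 over all 13 alternatives. Gsdmd, the pore-forming gasdermin cut by inflammatory caspases, had a mean of 49.1 ± 3.16 CPM against 35.1 ± 2.89 CPM and was not called (log2 fold change -0.48, adjusted p = 0.0718). Pycard, the adaptor that joins Nlrp3 to caspase-1, had 1.68, 1.16 and 1.34 CPM against 3.02, 1.65 and 5.03 CPM (adjusted p = 0.167). Casp4, the caspase of the non-canonical inflammasome, had 3.29, 2.25 and 1.59 CPM against 4.87, 2.71 and 7.12 CPM (adjusted p = 0.209). Gsdmd, Pycard and Casp4 were chosen for their place next to Nlrp3 and Casp1 after their values were seen.

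Of the other IL-1 family ligands and receptors 6 were tested and 0 were called by edgeR, and DESeq2 and limma voom also called 0. At an unadjusted p under 0.05 (edgeR) there were 3 of the 6, beside 19.7% of all tested genes. The median log2 fold change of the list was 0.03. Sigirr, an inhibitory receptor of the family, had 20.9, 20.7 and 18.4 CPM in the WT libraries and 10.2, 11.8 and 16.6 CPM in the KO libraries (log2 fold change -0.64 ± 0.19, adjusted p = 0.118; -0.29 with total-count scaling). Il1rl2, the IL-36 receptor, was at 0.352 ± 0.183 CPM against 1.01 ± 0.528 CPM (adjusted p = 0.202). Groups did not overlap for either, Sigirr on the lower and Il1rl2 on the higher side in the knockout libraries. Both were named for the smallest p-values of the list. Over the 6 tested genes, groups did not overlap for 2 higher and 1 lower, beside 25.7% of all tested genes. Among 21 genes of signalling below the receptor, including Myd88, the Irak kinases and Traf6, 0 were called, 4 had an unadjusted p under 0.05 and the median was -0.04, and DESeq2 and limma voom called 0. The adaptor Myd88 differed by 0.02 on the log2 scale (adjusted p = 0.983) and was named for its place next to the receptor. The smallest p-values of that list belonged to Tab2, a TAK1-binding adaptor at -0.30 ± 0.11 (adjusted p = 0.171; 0.02 with total-count scaling, adjusted p = 0.911), and Irak3, an inhibitory member of the kinase family at -1.18 ± 0.46 (adjusted p = 0.211).

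Genes known to respond to IL-1 and NF-kB were called in both directions. Of 18 tested 2 were called higher, 1 lower and 15 not called, with a median log2 fold change of 0.62. DESeq2 called 6 of the list, 4 higher and 2 lower, and limma voom 2, 1 in each direction. Over all tested genes edgeR called 1.44%, DESeq2 10.6% and limma voom 0.403%. Tnfaip3, a ubiquitin-editing inhibitor of NF-kB, was at 4.49, 3.75 and 3.97 CPM in the WT libraries and 13.6, 11.1 and 11.8 CPM in the KO libraries (log2 fold change 1.58 ± 0.17, adjusted p = 0.038). Vcam1, an adhesion molecule, had 21.0, 13.0 and 16.0 CPM against 52.4, 32.9 and 49.6 CPM (adjusted p = 0.0453). Saa3, an inducible serum amyloid, had 261, 147 and 174 CPM against 17.2, 12.5 and 5.48 CPM (log2 fold change -4.05 ± 0.46, adjusted p = 0.039). For all 3 genes the groups did not overlap, beside 25.7% of all tested genes. These calls were lost without WT replicate 2, without WT replicate 3 or without KO replicate 1, and that of Vcam1 also without KO replicate 3 and with limma voom. With the replicate number as a block the calls of Tnfaip3 and Vcam1 were lost, while Saa3 stayed called (edgeR adjusted p = 0.0462). The sum of the list was 1400 to 2900 CPM against 327 to 780 CPM, and without Lcn2 and Saa3 it was 129 to 213 CPM against 199 to 325 CPM. Lcn2 had a mean of 1710 ± 672 CPM in WT and 240 ± 173 CPM in KO, without overlap. It was not called (log2 fold change -2.83 ± 0.56, adjusted p = 0.0551, edgeR).

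**Figure D4:**
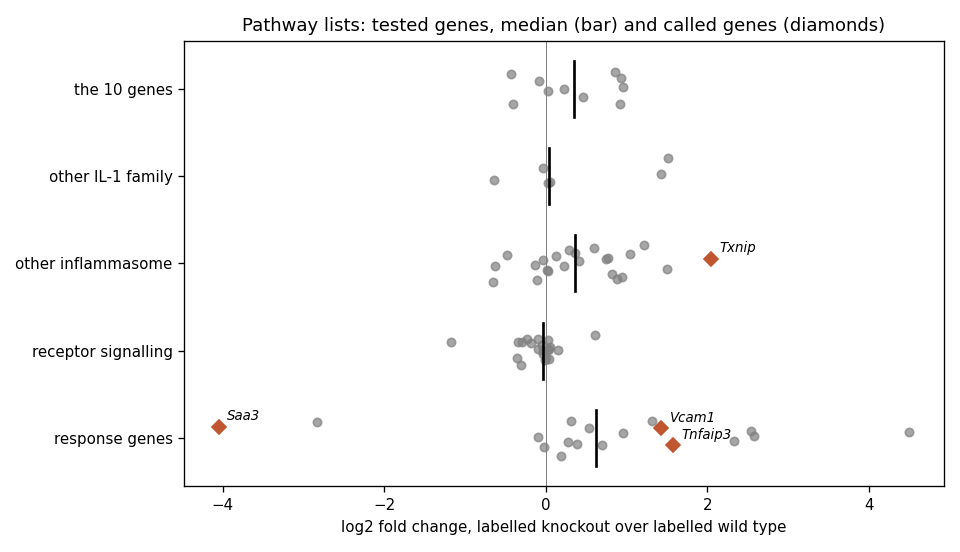
Log2 fold changes of all tested genes in the 10-gene group and 4 further pathway lists, with the median of each list as a bar and the called genes as labelled diamonds. Called genes are Txnip in the inflammasome list and Tnfaip3, Vcam1 and Saa3 in the response list; the 10 genes hold no diamond, and the medians run from -0.04 (receptor signalling) to 0.62 (response genes).

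Markers of cell types that could supply these transcripts differed between libraries. Of 14 recruited monocyte and macrophage markers 1 was called higher, Cd68 (13.5 ± 3.10 to 39.4 ± 8.06 CPM, adjusted p = 0.039), and the list sum was 211 to 374 CPM against 570 to 1520 CPM without overlap. Ccr2, with the next smallest p of the list, was not called (2.64 ± 1.47 to 12.0 ± 3.45 CPM, adjusted p = 0.0501, edgeR). DESeq2 called 11 of the 14, beside 10.6% of all genes, and limma voom 1. At an unadjusted p under 0.05 (edgeR) there were 13 of the 14, beside 19.7% of all tested genes. Groups did not overlap for 12, all higher, beside 13.7% of all tested genes. The median log2 fold change of the list was 1.65, with 13 positive and 1 negative. The call of Cd68 was lost without WT replicate 2 or 3 or KO replicate 1 or 3, and with replicate number as a block. Over all tested genes those fits called only 0, 4, 11, 33 and 4, in that order. Of 11 resident Kupffer cell markers 0 were called by edgeR with 3 at an unadjusted p under 0.05 (2 called by DESeq2, 0 by limma voom), and the sum was 759 to 905 CPM against 383 to 760 CPM. The sums overlapped narrowly, at 759 CPM in WT replicate 3 and 760 CPM in KO replicate 1. Log2 fold changes were negative for 8 and positive for 3. Groups did not overlap for 4 lower and 1 higher (25.7% of all tested genes). The smallest p-values were those of Adgre1, at 0.92 (adjusted p = 0.051, edgeR), and C6, at -0.69 (adjusted p = 0.167, edgeR). Of 12 tested neutrophil markers 1 was called lower, the granule protease Prtn3, and the list sum of 36.0 to 44.5 CPM against 10.9 to 17.5 CPM became 10.1 to 13.7 CPM against 10.6 to 15.6 CPM without Prtn3. Ly6g, a defining neutrophil marker, had 0 counts in all KO libraries (up to 0.0339 to 0.0425 CPM per library) and 0, 3 and 8 in the WT libraries. Csf3r, the granulocyte colony-stimulating factor receptor, was on the other side without overlap, at 4.91, 4.35 and 4.03 CPM in WT and 8.29, 6.30 and 6.06 CPM in KO (adjusted p = 0.149). Of the 12 tested neutrophil markers 4 had positive and 8 negative log2 fold changes. The call of Prtn3 was lost without WT replicate 2 or 3 or KO replicate 1 or 3, and with replicate number as a block. These are the fits named for Cd68, which called few genes of any kind. No gene of the dendritic cell, T and natural killer cell, B cell, endothelial or bile duct lists was called by edgeR. Of 8, 12, 7, 11 and 8 tested, 1, 4, 1, 4 and 6 had an unadjusted p under 0.05, beside 19.7% of all tested genes. DESeq2 called 1, 2, 1, 1 and 5, beside 10.6% of all genes, and limma voom 0. The median log2 fold changes of these lists were 0.77, 0.95, 0.30, 0.31 and 2.88, beside -0.02 for all tested genes. In the bile duct list 8 were positive and 0 negative. The sums of these lists overlapped between WT and KO, from 9.59 to 15.1 and 13.9 to 21.5 CPM for dendritic cells and from 82.3 to 111 and 82.4 to 663 CPM for bile duct cells, where KO replicate 3 was highest in both. Spp1 is in both the bile duct and the recruited macrophage list. It had 103, 90.4 and 74.8 CPM in WT and 232, 74.5 and 581 CPM in KO, most of the bile duct sum in each library. The part of these cell types in the values of the 10 genes was not tested.

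**Figure D5:**
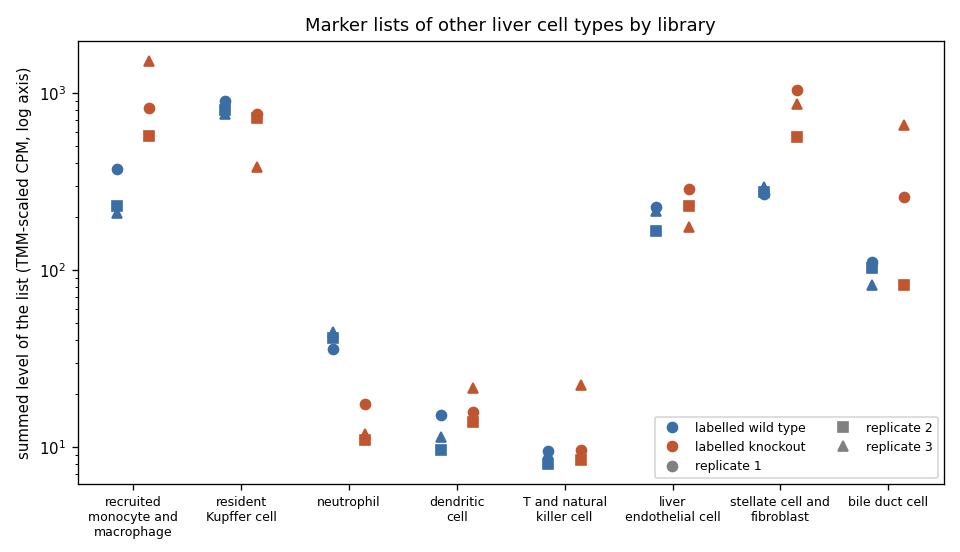
Summed TMM-scaled CPM of 8 cell type marker lists in each library, on a log axis. Spp1 is in both the recruited macrophage and the bile duct list. The recruited macrophage list is higher in every KO library (570 to 1520 CPM against 211 to 374 CPM), and the neutrophil list lower through Prtn3. The Kupffer list overlaps narrowly between the groups, at 759 CPM in WT replicate 3 and 760 CPM in KO replicate 1.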

How the data were processed

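RNA of mouse liver was sequenced, with 3 libraries per genotype label. The authors deposited raw whole-number counts per gene, 1 column per library without pooling. The submitters' processing notes name GRCm39 and edgeR. Aligner, counter, annotation release and use of strand are not given in the sources used here. Gene coordinates are those of the deposited table; promoter sequences are RefSeq, GRCm38.p6, matched by symbol for 10 of 10 genes, and exon lengths are from GENCODE vM21 by gene identifier.

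Columns were matched to samples by title. Separate animals are not stated by the labels; the p-values therefore reflect spread among these 6 libraries, possibly only technical spread. Libraries of the same group differed by more than sampling noise (mean chi-square over genes 63 or more). Genes were kept by filterByExpr (17606 of 30029) and tested with edgeR 4.0.16 (quasi-likelihood F test, robust, TMM, R 4.3.3), with Benjamini-Hochberg adjustment over all tested genes and a threshold of 0.05. The SE was taken from the F statistic. Ratios used a pseudocount of 0.1 CPM. A floor is 3 counts; floors cover counting error only, as amplified reads are not independent molecules. The gene test was run before use on simulated counts in which the changed genes were known. The changed genes were drawn only from genes above a minimum mean level, which Il1r2 did not reach. The test called 0 of 50 genes changed 1.5-fold, 17 of 50 changed 2-fold, 41 of 50 changed 4-fold and 40 of 50 changed 8-fold. A gene that was not called can therefore still differ at the sizes seen for the 10 genes, all below 2-fold. Alternatives were DESeq2 1.42.0, limma voom 3.58.1, DESeq2 size factors, total counts, no filter, 10 counts in 3 libraries, the replicate number as a block and each library left out.

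The members and lists were chosen with earlier results of these data known, and no list was tested as a group. Named genes were the 10 members, Atp7b and, from each pathway list, up to 4 called genes or the 2 with the smallest p. Up to 2 genes of each marker list were named, but none of the dendritic cell, T and natural killer cell, B cell, endothelial and bile duct lists. Il1rl1, Myd88, Gsdmd, Pycard, Casp4, Ly6g, Lcn2, Spp1 and Alb, and the sums without single genes, were chosen after their values were seen. Of the 13 further IL-1 family genes listed, 7 had a row; the other 6, and Csf3 of the response list, were not analysed here.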

Additional observations from a re-analysis of the deposited data

How the results depend on the processing

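With 1 library left out the genes called ranged from 0 to 912, the members called from 0 to 1, members whose groups did not overlap from 2 to 5, pathway list genes called from 0 to 5, and the median log2 fold change of the members from -0.03 to 0.69. The genes called were 0 without WT replicate 2, 4 without WT replicate 3, 11 without KO replicate 1 and 33 without KO replicate 3. They were 382 without WT replicate 1 and 912 without KO replicate 2. With all libraries 253 genes, 0 members and 4 pathway list genes were called, and the median was 0.35. Total counts gave 1008 genes (93.4% higher against 64.8%), 8 pathway list genes and a median of 0.69. No filter gave 473 genes. DESeq2 gave 1867 genes and 11 pathway list genes. limma voom gave 71 genes, 2 pathway list genes and a median of 0.16. With the replicate number as a block there were 4 genes, 1 pathway list gene and a median of 0.19. Correlations between WT and KO libraries were taken on log2 CPM after each gene's group mean was subtracted. They were -0.01, -0.03 and -0.04 for same-numbered libraries and -0.01 to 0.04 for the other pairs. Whether same-numbered libraries shared a batch is not given by the labels. The cause of these shifts was not tested.

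Of the 10 genes, 6 kept their direction and stayed above the threshold in all 13 alternatives (Casp1, Il18, Il1b, Il1rap, Il33 and Nlrp3), and Il1rn kept its direction and passed without WT replicate 1. Directions turned for Il1r1 (0.22 with total counts, -0.78 to 0.24 with 1 library left out), Il1a (-0.04 with limma voom, -0.01 with the block, -0.16 to 0.21 with 1 library left out) and Il1r2 (-0.96 with limma voom, -0.33 with the block, -1.03 to 0.84 with 1 library left out). The ratio of Il1r2 to Il1r1 went from 0.09 to -0.69 with a pseudocount of 0.01 CPM and ran from -0.34 to 0.60 with 1 library left out; with 1 library left out the other 3 ratios kept their direction, at 0.32 to 1.45 (Il1rn to Il1b), 0.24 to 0.55 (Il1b to Il1a) and 0.21 to 1.34 (Il1b to Il18). Depth limits Il1r2, with at most 35 counts in a library.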
